A study of Mus musculus with 6 samples.

Results

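Genes of retinoic acid handling, 9 in all, were read from the counts of embryonic mouse hearts. The set comprised Stra6, Dhrs3, Aldh1a2, Crabp1, Crabp2, Rara, Rarb, Rarg and Rxra, chosen by symbol, and all 9 were found among the 30619 genes of the table. The 6 libraries held poly(A) RNA of mixed cardiac cells from hearts at E12.5, in mid-gestation. The 3 control libraries are labelled wild-type. The other 3 come from embryos with a conditional knockout of Trim28, called CKO here after their titles, although the genotype entry of these samples reads knockdown. Neither the Cre driver and the cells it acts in, nor the strain, nor the number of hearts per library is given in the sources used here. The series set these groups side by side to ask what TRIM28, a co-repressor that zinc finger proteins bring to chromatin, does when the ventricular wall is built.

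Retinoic acid is a small lipid hormone made from vitamin A. Cells take up retinol, oxidise it to retinaldehyde and then to retinoic acid, and carry the product on small binding proteins to the nucleus, where heterodimers of a retinoic acid receptor (RAR) and a retinoid X receptor (RXR) switch genes on or off according to whether the ligand is bound. In the mouse heart at this stage the epicardium, the outer cell layer, is a well-known source of retinoic acid, and loss of its synthesis or of Rxra leaves a thin ventricular wall.

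The heterodimers bind pairs of a short half-site in the same orientation, and the classic example stands in the Rarb gene itself. The deposited data hold no binding measurements, so the element is shown only to place the gene in its pathway. Promoter windows from RefSeq (build GRCm38.p6) were at hand for 8 of the 9 genes, 18 windows in all, and Crabp2 was not searched. In each window the 250 bases before the start were searched on both strands for 2 half-sites (AGGTCA, its variant GGGTCA, its variant AGTTCA or its variant GGTTCA) in direct repeat with a spacer of 1, 2 or 5 bases. One match was found, in Rarb, at chr14:16575513-16575529, read on the minus strand, from 53 to 37 bases before the RefSeq start. It is printed with its flanks, 30 bases in all, with the half-sites in capitals.
Rarb: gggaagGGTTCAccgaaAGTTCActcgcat
The same repeat with a spacer of 5 occurs in 0.0883% of the 32851 RefSeq windows of this length, and any of the 3 repeats in 0.426%. The GENCODE M21 annotation places this stretch inside an exon, in the untranslated part, of the transcripts Rarb-201 and Rarb-207. A match of letters describes the window and is not evidence of binding, and a window without one says nothing about the receptor. Single half-sites, which 38.6% of all windows contain, were found in 1 window each of Rara, Rarb, Rarg and Rxra. No other window of the 18 held one.

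Counts per library ran from 34400841 to 39763233. Trim28 itself was measured at 305, 391 and 443 CPM (counts scaled to the library size with TMM factors) in the 3 controls, and the libraries labelled CKO 1, 2 and 3 gave 172, 314 and 165 CPM, so that the library labelled CKO 2 lay inside the control range. Its log2 fold change, CKO over control as everywhere below, was -0.81 (standard error, SE, 0.34), not called by the quasi-likelihood test of edgeR (adjusted p = 0.349), and the directions given for CKO rest on the labels. A ribosomal RNA row took 0.126% to 0.522% of counts in controls and 0.563% to 0.79% in CKO. The summed counts of 4 Y-linked genes were 3203, 1 and 4564 in controls and 3682, 7144 and 8275 in CKO. Counts of Xist, a transcript of female cells, were 24633, 36330 and 17569 in controls and 15232, 7 and 4 in CKO. Control replicate 2 thus held almost only the female signal. The library labelled CKO 2 and CKO replicate 3 held almost only the male one, and the other libraries held both. The mix of sexes therefore differed between the groups. No label says that libraries came from separate embryos or pools, so p-values cover only the spread among these libraries.

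No gene of the set was called between CKO and control hearts. Of the 9, all tested, 0 passed an adjusted p under 0.05 in edgeR, where 4.22% of the 17557 tested genes did, and 0 were called by DESeq2 or limma-voom. At an unadjusted p under 0.05 there were 2 of 9, Rxra and Rara, against 17.3% of all tested genes. The CKO values lay wholly below the controls for 2 of the 9, Rxra and Rarg, against 10.6% of all tested genes, and wholly above them for 0, against 11.5%. Their median log2 fold change was 0.05, with 4 of 9 negative, and that of all tested genes was 0.00, with 49.1% negative. The median size of change without its sign was 0.17 on the log2 scale in the set and 0.13 over all tested genes, with median SE of 0.13 and 0.11. A p that misses the threshold does not show equal levels, so each gene is given below with the 95% interval of its change.

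**Figure D1:**
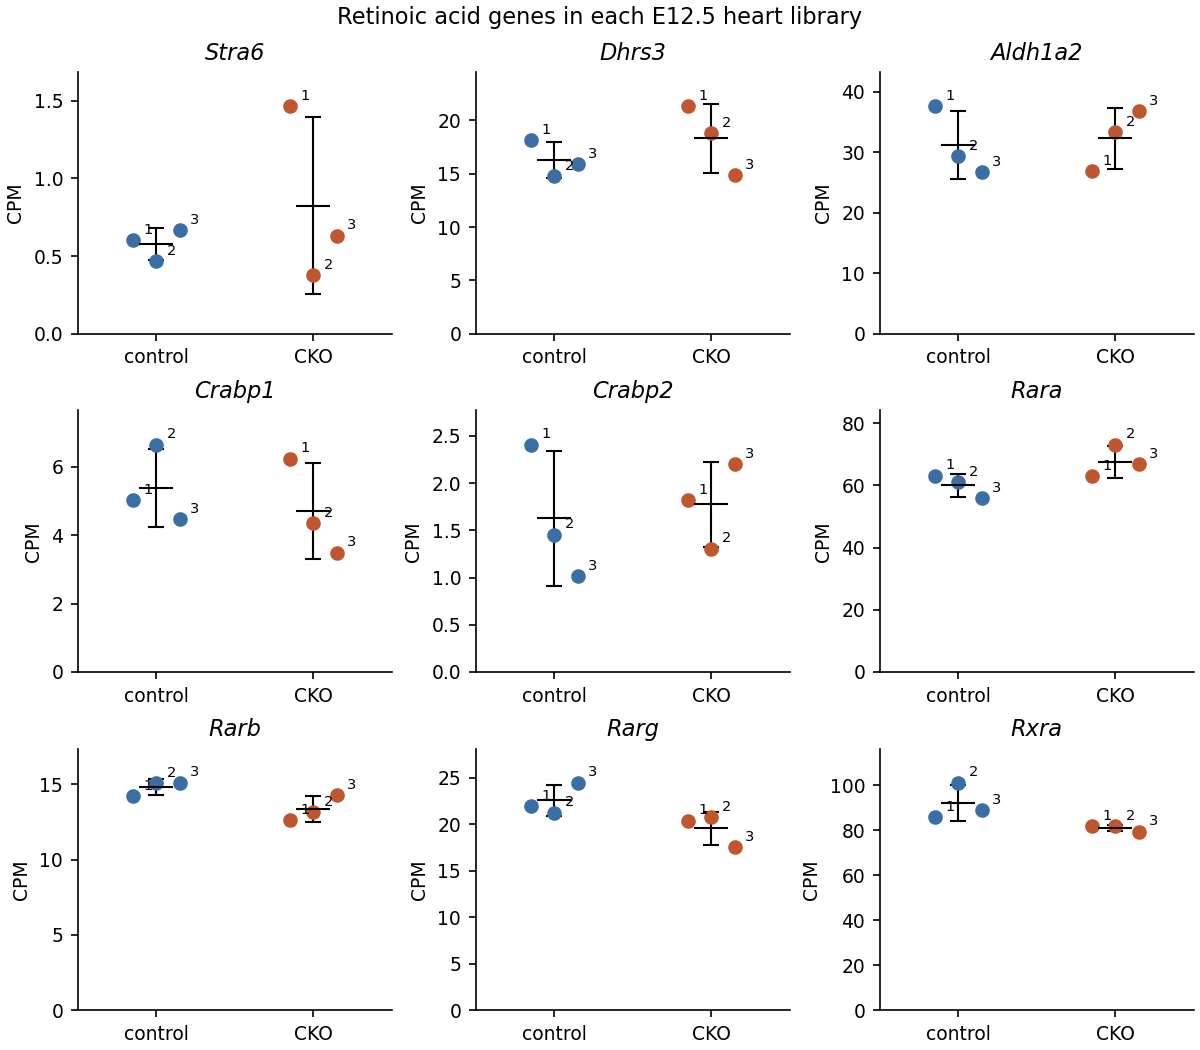
CPM of the 9 genes in each library, with control on the left and CKO on the right of each panel. Points are libraries marked with their replicate number, horizontal lines are means and bars are SD (n = 3). The groups part only for Rarg and Rxra, where each CKO point lies below each control point.

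Levels of different genes were compared as CPM per kilobase of exon (union of the exons in GENCODE M21). In controls Rxra stood first at 16.8 ± 1.47 CPM per kb (SD, n = 3), followed by Aldh1a2 at 13.8 ± 2.50 and Rara at 13.7 ± 0.859. The control values of Aldh1a2 overlapped those of both others, so its place among the 3 is not resolved. With this length the lowest control value of Rxra (15.7) lay above the highest of Rara (14.5). A second tier held Crabp1 at 6.70 ± 1.42, Dhrs3 at 5.56 ± 0.589 and Rarg at 5.30 ± 0.397 CPM per kb, again with overlapping neighbours, and its highest control value (8.29, Crabp1) lay below the lowest of Rara (12.8). Rarb at 2.81 ± 0.0975, Crabp2 at 1.23 ± 0.539 and Stra6 at 0.0994 ± 0.0175 CPM per kb were each separate from the gene above, with the limit on Rarb given below. The synthetic enzyme was thus measured at a level per length near those of its most abundant receptor transcripts, and the retinol receptor close to the floor of the table. With the longest transcript as the length, Rara came before Aldh1a2, and Rarg and Dhrs3 before Crabp1, while Rxra stayed first and Rarb (4.77), Crabp2 (1.75) and Stra6 (0.188 CPM per kb) last.

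**Figure D2:**
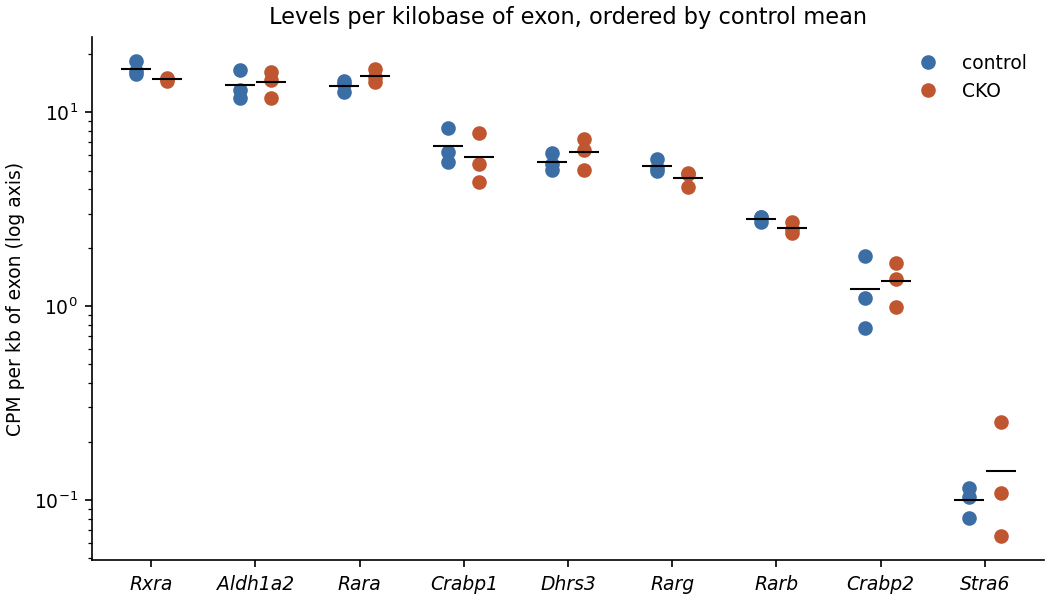
Level of each gene in CPM per kb of exon on a log axis, ordered by the control mean. Points are libraries and short lines are group means. Rxra, Aldh1a2 and Rara form the upper group, between 11.8 and 18.5 CPM per kb over all 6 libraries, and Stra6 lies lowest, between 0.0648 and 0.251.

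Uptake of retinol was represented by Stra6 (ENSMUSG00000032327.14, mm10 chromosome 9, 58063788 to 58153996, plus strand), the membrane receptor that takes retinol from its plasma carrier. It had 24, 18 and 25 counts in control replicates 1, 2 and 3 and 53, 13 and 25 counts in CKO replicates 1, 2 and 3. CKO replicate 1 was the highest library and the library labelled CKO 2 the lowest, so the CKO group enclosed the controls. The log2 fold change was 0.51 (SE 0.54, edgeR adjusted p = 0.716), with an interval from -0.63 to 1.65, and without CKO replicate 1 it was -0.20. The interval corresponds to 0.646 to 3.13 of the control level.

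Dhrs3 (ENSMUSG00000066026.14, chromosome 4, 144892827 to 144928209, plus strand) encodes a reductase that turns retinaldehyde back into retinol and so limits synthesis. It was at 18.1, 14.8 and 15.9 CPM in controls and at 21.3, 18.8 and 14.8 CPM in CKO. CKO replicate 1 and the library labelled CKO 2 were above all controls, and CKO replicate 3 was within them. The log2 fold change was 0.17 (SE 0.13, interval -0.10 to 0.43, edgeR adjusted p = 0.555). For Dhrs3 it was 0.10 without control replicate 2, 0.04 without CKO replicate 1 and 0.30 without CKO replicate 3.

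Aldh1a2 (ENSMUSG00000013584.5, chromosome 9, 71215789 to 71296243, plus strand) encodes retinaldehyde dehydrogenase 2, the main enzyme that makes retinoic acid in the embryo. It was at 37.6, 29.4 and 26.7 CPM in controls and at 26.8, 33.4 and 36.8 CPM in CKO. Both groups spread over the same range, and the means were 31.2 ± 5.65 and 32.3 ± 5.04 CPM (SD, n = 3). The log2 fold change was 0.05 (SE 0.14, edgeR adjusted p = 0.918), and its interval, from -0.27 to 0.37, corresponds to 0.830 to 1.29 of the control level. Its sign was not fixed: the value was -0.06 without control replicate 3 and -0.05 without CKO replicate 3.

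In these bulk libraries fewer cells of a type and less RNA per cell cannot be told apart, so the markers of the layer that makes retinoic acid are given beside the enzyme. Of 13 epicardial markers, all tested, Krt19, a keratin gene, was higher (log2 fold change 0.59, edgeR adjusted p = 0.0016) and none was lower, beside 4.22% of all tested genes called, with a median log2 fold change of 0.08 and 6 of 13 negative. At an unadjusted p under 0.05 there were 4 of 13, against 17.3% of all tested genes. They were Krt19 and, with negative values, Muc16 (-0.33), Lrrn4 (-0.19) and Upk3b (-0.12) (edgeR adjusted p = 0.205, 0.262 and 0.265). The CKO values lay wholly below the controls for Upk3b alone of the 13, against 10.6% of all tested genes. They lay wholly above the controls for Krt19 alone, against 11.5%. Wt1 and Tcf21, transcription factor genes of the epicardium, were at 0.17 (adjusted p = 0.371) and 0.08 (adjusted p = 0.687), and Tbx18 at -0.11 (adjusted p = 0.331). The summed CPM of the 13 ran from 502 to 531 in controls and from 509 to 552 in CKO, which overlap. Summed markers of lung and foregut stayed under 1.99 CPM and those of liver under 1.69 CPM in every library.

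By the rule for similar patterns, the 5 genes whose log2 CPM followed Aldh1a2 most closely over the 6 libraries were Gas8 (Pearson r = 0.99), Lekr1 (0.97), Mbip (0.97), Cpt1b (0.97) and Helq (0.96). The 6 points share library depth and scaling and the genes were picked from many, so these values only describe the libraries. None of the 5 was called between the groups.

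The carriers of retinoic acid inside the cell were modest in level and variable. Crabp1 (ENSMUSG00000032291.8, chromosome 9, 54764748 to 54773110, plus strand), a cytosolic binding protein gene known for its expression in neural crest, was at 5.02, 6.65 and 4.46 CPM in controls and at 6.24, 4.36 and 3.49 CPM in CKO. The groups overlapped, with the highest value in control replicate 2. For Crabp1 the log2 fold change was -0.20 (SE 0.22, interval -0.66 to 0.26, edgeR adjusted p = 0.728), and it was -0.46 without CKO replicate 1, -0.32 without control replicate 3, and -0.02 without control replicate 2 or without CKO replicate 3. Of 6 tested markers of neural crest, glia and nerve, none was called by edgeR, DESeq2 or limma-voom. At an unadjusted p under 0.05 in edgeR there was 1 of 6, against 17.3% of all tested genes. The summed CPM of this list ran from 57.3 to 67.8 in controls and from 55.2 to 66.5 in CKO.

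Crabp2 (ENSMUSG00000004885.5, chromosome 3, 87948666 to 87953376, plus strand), whose product hands retinoic acid to RARs in the nucleus, had 96, 56 and 38 counts in controls and 66, 45 and 87 in CKO. In CPM the controls were at 2.41, 1.45 and 1.02 and CKO at 1.82, 1.31 and 2.198, so that every CKO library lay between the lowest and the highest control. For Crabp2 the log2 fold change was 0.13 (SE 0.35, interval -0.61 to 0.86, edgeR adjusted p = 0.909). It was 0.52 without control replicate 1, and it turned to -0.12 without control replicate 3 and to -0.06 without CKO replicate 3.

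Among the receptors, Rxra and Rarg had lower values in CKO hearts and Rara mostly higher ones, by small amounts that did not pass the test. Rxra (ENSMUSG00000015846.14, chromosome 2, 27676440 to 27762957, plus strand), the shared partner of the RARs, was at 85.9, 101 and 88.8 CPM in controls and at 81.6, 81.9 and 79.3 CPM in CKO. Each CKO library was below each control, although the nearest values, 81.9 and 85.9, lay close together. Its log2 fold change of -0.18 (SE 0.06, interval -0.31 to -0.05) had an adjusted p of 0.107 in edgeR, below which none of the other 8 came. Without control replicate 2, the highest library, it was -0.11 (adjusted p = 0.444).

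Rarg (ENSMUSG00000001288.15, chromosome 15, 102234938 to 102257517, minus strand), the RAR gamma gene, was at 22.0, 21.2 and 24.5 CPM in controls and at 20.4, 20.8 and 17.5 CPM in CKO. The groups did not overlap, but control replicate 2 and the library labelled CKO 2 differed by less than the SD within either group (1.69 and 1.79 CPM). For Rarg the log2 fold change was -0.21 (SE 0.10, interval -0.41 to 0.00, edgeR adjusted p = 0.296), and without CKO replicate 3 it was -0.13.

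Rara (ENSMUSG00000037992.16, chromosome 11, 98927818 to 98974942, plus strand), the RAR alpha gene, was at 63.1, 61.0 and 55.8 CPM in controls and at 62.8, 73.1 and 66.8 CPM in CKO. The lowest CKO library, replicate 1, lay just under the highest control, and the other CKO libraries were above all controls. Its log2 fold change of 0.17 (SE 0.07, interval 0.03 to 0.31) had an adjusted p of 0.177 in edgeR, and it was 0.11 without the library labelled CKO 2.

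Rarb (ENSMUSG00000017491.9, chromosome 14, 16430839 to 16819156, minus strand), the receptor gene that carries the printed repeat and is itself induced by retinoic acid in many cells, was at 14.2, 15.1 and 15.1 CPM in controls and at 12.6, 13.2 and 14.3 CPM in CKO. The highest CKO library just reached into the control range. This gave a log2 fold change of -0.15 (SE 0.11, interval -0.37 to 0.08, edgeR adjusted p = 0.528). On the opposite strand the exons of Top2b, the topoisomerase II beta gene, share 1793 bases with those of Rarb, 34.1% of its exon length, and no source used here says whether reads were counted by strand. Top2b had means of 251 ± 1.70 CPM (control) and 233 ± 8.14 CPM (CKO; SD, n = 3), far above Rarb, so part of the Rarb count may not be its own. The counts cover the whole gene, so transcripts from its different start sites were not separated.

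**Figure D3:**
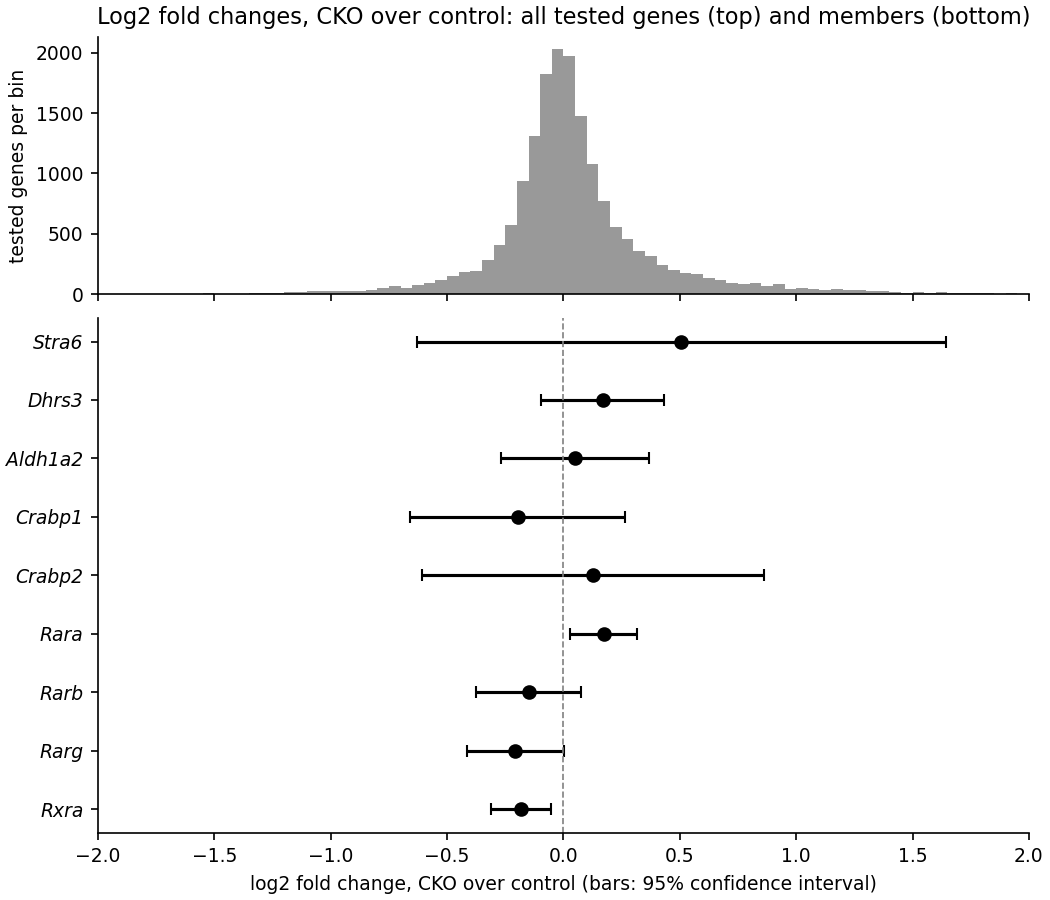
Top, distribution of log2 fold changes (CKO over control) of the tested genes in bins of 0.05, with 55 genes beyond the axis not drawn. Bottom, log2 fold change of each of the 9 genes (point) with its 95% confidence interval (bar): the interval lies below 0 for Rxra, above 0 for Rara, and includes 0 for the other 7 before adjustment for multiple testing.

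The 3 RAR genes were also read as shares of their summed CPM per kb within each library, a description added to the gene tests. Rara made up 64.8%, 64.0% and 59.7% in controls and 66.7%, 69.4% and 69.1% in CKO. Rarg made up 23.1%, 22.8% and 26.8% in controls and 22.2%, 20.2% and 18.6% in CKO. Rarb made up 12.9% ± 0.692 in controls and 11.2% ± 0.967 in CKO (SD, n = 3), and its share is subject to the overlap with Top2b. Rara was the most abundant RAR transcript per length in each of the 6 libraries, and the groups did not overlap for Rara or Rarg. The ratio of Rarg to Rara counts, which needs no gene length, was 0.378 ± 0.052 in controls and 0.290 ± 0.0316 in CKO (SD, n = 3). The groups did not overlap in this ratio, which was computed after the values of both genes were known and is given with no test.

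**Figure D4:**
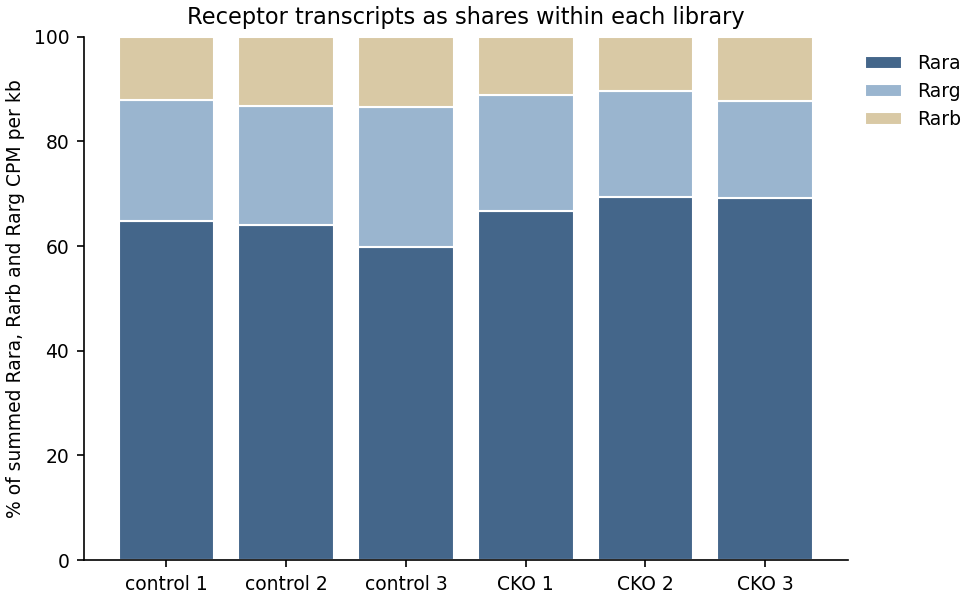
Stacked bars of Rara, Rarg and Rarb as percent of their summed CPM per kb in each library. The Rara share runs from 59.7% to 64.8% in controls and from 66.7% to 69.4% in CKO, and the Rarg share from 22.8% to 26.8% and from 18.6% to 22.2%.

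The rest of the pathway was followed through 68 genes in 5 lists, of which 57 were tested. In edgeR 2 were higher and 2 were lower, 7.02% of those tested beside the 4.22% of all tested genes, and their median log2 fold change was -0.02. At an unadjusted p under 0.05 in edgeR there were 15 of the 57 (26.3%), against 17.3% of all tested genes. The 4 called genes were Rbp4, Hoxa5, Meis2 and Mycn, and they belonged to 3 of the lists. DESeq2 called 8 of these genes and limma-voom 4.

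For synthesis, uptake and storage of retinoids there were 11 tested genes of 15, with 1 higher, none lower and a median log2 fold change of 0.25. That median is the value of Adh1, a gene of low count (7 to 26 per library, SE 0.64). The called gene was Rbp4 (chromosome 19, 38116629 to 38125281, minus strand), which encodes the plasma carrier of retinol. Rbp4 was at 0.477, 0.26 and 0.508 CPM in controls and at 1.60, 1.25 and 1.21 CPM in CKO. All CKO values were above all controls at a low level, and the log2 fold change was 1.70 (SE 0.46, edgeR adjusted p = 0.0419). The call was kept without the library labelled CKO 2 (adjusted p = 0.0357) and lost without each other library in turn (adjusted p = 0.0958, 0.148 and 0.0897 without control replicates 1, 2 and 3, and 0.136 and 0.116 without CKO replicates 1 and 3). Rdh10, which encodes the enzyme that oxidises retinol to retinaldehyde, was at 10.7, 12.9 and 14.5 CPM in controls and at 17.4, 13.5 and 16.1 CPM in CKO, with overlapping groups and a log2 fold change of 0.30 (SE 0.13, edgeR adjusted p = 0.215). The other retinaldehyde dehydrogenase genes were low, Aldh1a1 at 3.09 ± 0.774 CPM in controls and 4.07 ± 0.449 in CKO and Aldh1a3 at 0.479 ± 0.283 and 0.725 ± 0.396 CPM (SD, n = 3), and neither was called (edgeR adjusted p = 0.402 and 0.68).

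Degradation and binding had 4 tested genes of 5. None was called by edgeR, 1 by DESeq2 and 0 by limma-voom. At an unadjusted p under 0.05 in edgeR there was 1 of 4, against 17.3% of all tested genes. All 4 log2 fold changes were negative, against 49.1% of all tested genes, with a median of -0.45. The largest falls were in genes of low count, Cyp26a1 (-0.65, SE 0.72, 4 to 24 counts) and Rbp7 (-0.66, SE 0.58, 10 to 30 counts). Cyp26b1, one of the cytochrome P450 genes that clear retinoic acid, was at 15.9, 15.7 and 22.9 CPM in controls and at 15.8, 15.1 and 14.98 CPM in CKO. Control replicate 3 stood apart from the other 5 libraries, and the log2 fold change of -0.25 (SE 0.13, edgeR adjusted p = 0.35) was -0.05 without it. Fabp5, which encodes a fatty acid binding protein that can also carry retinoic acid, was at 166 ± 8.35 CPM in the control and 146 ± 5.62 CPM in the CKO libraries (SD, n = 3). Its groups did not overlap, its log2 fold change was -0.18 (SE 0.05, edgeR adjusted p = 0.0757), and it was called without the library labelled CKO 2 (adjusted p = 0.0183) and by DESeq2 (adjusted p = 0.0373).

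Receptor partners and co-regulators had 17 tested genes of 17, and none was called by edgeR, DESeq2 or limma-voom. At an unadjusted p under 0.05 in edgeR there were 3 of 17, near the 17.3% of all tested genes. Negative log2 fold changes were found in 13 of the 17, against 49.1% of all tested genes, with a median of -0.06. The smallest p belonged to Ncoa2, a nuclear receptor co-activator gene, at -0.14 (SE 0.05, edgeR adjusted p = 0.149), and to Nr2c2, which encodes an orphan nuclear receptor, at -0.17 (SE 0.07, edgeR adjusted p = 0.192). Rxrb, another RXR gene, had a mean of 60.2 ± 2.66 CPM in control and of 60.4 ± 2.39 CPM in CKO libraries (SD, n = 3), and the co-repressor gene Ncor1 had a log2 fold change of -0.07 (edgeR adjusted p = 0.629).

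Of the genes known to respond to retinoic acid, 17 were tested among 20. Hoxa5 was higher and Meis2 was lower, where 4.22% of all tested genes were called, and the median log2 fold change was 0.22. At an unadjusted p under 0.05 in edgeR there were 7 of 17, against 17.3% of all tested genes. Negative log2 fold changes were found in 5 of the 17. Meis2 (chromosome 2, 115863064 to 116065839, minus strand), a homeobox gene of the TALE class, was at 132, 125.3 and 144 CPM in controls and at 109, 111 and 104 CPM in CKO, with no overlap. It fell by 0.31 on the log2 scale (SE 0.06, edgeR adjusted p = 0.00341). Every fit with 1 library left out called it (adjusted p up to 0.0431). Hoxa5 (chromosome 6, 52201754 to 52204587, minus strand), a homeobox gene of trunk and body axis patterning, was at 0.828, 0.571 and 1.28 CPM in controls and at 4.47, 1.60 and 3.03 CPM in CKO. It rose by 1.76 on the log2 scale (SE 0.39, edgeR adjusted p = 0.0136). Hoxa5 was called without control replicate 3 (adjusted p = 0.0214) and without the library labelled CKO 2 (0.000195), and not without control replicate 1 (0.0862), control replicate 2 (0.0838), CKO replicate 1 (0.0794) or CKO replicate 3 (0.0648). In limma-voom its adjusted p was 0.0527. The gene lies within the spans of Hoxa3 and, on the opposite strand, of the antisense gene Hoxaas3, with no exon in common. Hoxa4, another gene of this list, was at 1.25, 0.493 and 0.214 CPM in controls and at 2.92, 1.69 and 1.74 CPM in CKO. Its log2 fold change of 1.68 (SE 0.49) was not called by edgeR (adjusted p = 0.0714).

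Growth factor and growth genes linked to epicardial retinoic acid signals had 8 tested genes of 11, of which 1 was lower and none higher, with a median log2 fold change of -0.11. Mycn (chromosome 12, 12936093 to 12941914, minus strand), a driver of growth in the compact wall, was at 64.3, 61.5 and 57.9 CPM in controls and at 35.3, 49.5 and 36.3 CPM in CKO. It fell by 0.60 on the log2 scale (SE 0.12, edgeR adjusted p = 0.0206), and it was not called without control replicate 1 (0.0658), control replicate 2 (0.0903) or CKO replicate 3 (0.07). Igf2, which encodes an insulin-like growth factor made by epicardium and other embryonic cells, was at 476, 433 and 464 CPM in controls and at 288, 400 and 315 CPM in CKO. The groups did not overlap, and the log2 fold change of -0.45 (SE 0.12) was not called by edgeR (adjusted p = 0.0918) but was by DESeq2 (adjusted p = 0.0453) and limma-voom (adjusted p = 0.00834), and by edgeR without the library labelled CKO 2 (adjusted p = 1.12e-07).

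**Figure D5:**
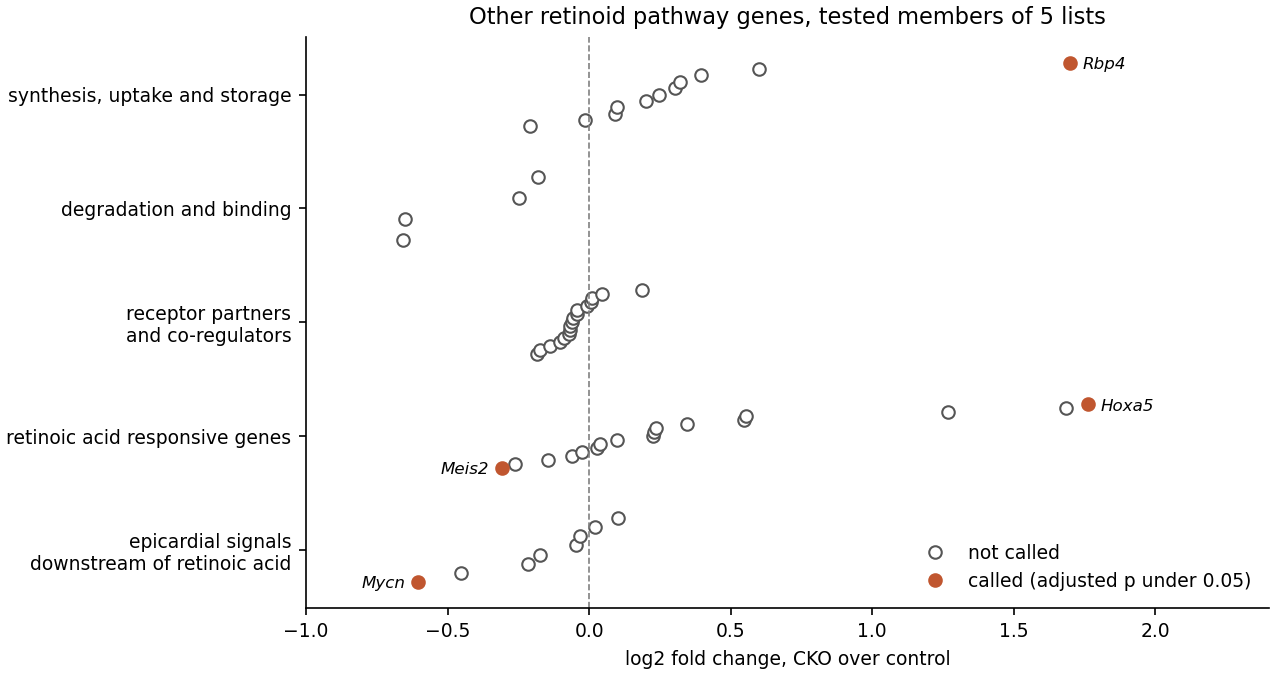
Log2 fold change (CKO over control) of the tested genes in the 5 retinoid pathway lists, 1 point a gene, spread vertically within a list by rank. Filled points are called genes (edgeR adjusted p under 0.05): Rbp4 at 1.70, Hoxa5 at 1.76, Meis2 at -0.31 and Mycn at -0.60.

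Markers of other cells were read beside these genes, against 4.22% of all tested genes called, 540 higher and 201 lower. Of 8 endothelial and endocardial markers 3 were lower and none higher, of 5 smooth muscle markers 3 were higher and none lower, and of 6 macrophage markers 2 were higher and none lower (edgeR). Summed CPM ran from 1471 to 1556 in controls and from 1231 to 1441 in CKO for the endothelial list, from 1528 to 1555 and from 2167 to 2627 for smooth muscle, and from 73.9 to 80.5 and from 83.7 to 101 for macrophages. Most of the smooth muscle sum was Acta2 (means of 1208 CPM in controls and 1891 in CKO) and Cnn1 (311 and 430). Myh11 was the third called gene of that list, and Tagln and Mylk were not called (edgeR adjusted p = 0.311 and 0.18). Tagln was low, with means of 1.37 CPM in controls and 2.06 CPM in CKO. Which cells the Acta2 and Cnn1 transcripts came from was not tested. Of 9 cardiac muscle markers 2 were higher and none lower, with sums from 29748 to 31752 in controls and from 31808 to 32999 in CKO. No red cell marker was called by edgeR among 7 (1 by DESeq2 and 0 by limma-voom), with a median log2 fold change of -0.48. At an unadjusted p under 0.05 in edgeR there were 0 of these 7, against 17.3% of all tested genes. Of 8 markers of cushion mesenchyme and fibroblasts 1 was lower. No marker of these 6 lists was at 0 in any library. Their part in the values of the retinoic acid genes was not tested. With the ribosomal RNA share as a covariate none of the 4 called pathway genes kept its call (adjusted p = 0.6 for Rbp4, 0.326 for Hoxa5, 0.411 for Meis2 and 0.237 for Mycn), and with Y-linked expression as a covariate Meis2 did (adjusted p = 0.00757) and the other 3 did not (0.253, 0.125 and 0.119). All 3 CKO libraries exceeded all 3 controls in the ribosomal RNA share, so it cannot be told apart from the group.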

How the data were processed

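Raw read counts per gene symbol were deposited for 6 libraries, and the labels call the columns raw counts. GEO's processing notes by the submitters give mm10 as the build. Aligner, counting program, annotation and use of strand: not given in the sources used here. Of the symbols, 2017 had been altered and were restored through GENCODE M21, which also gave positions and exon lengths. No row lacked a name.

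edgeR 4.0.16 in R 4.3.3 was used with filterByExpr (minimum count 10, total 15), TMM scaling, robust dispersions and a two-sided quasi-likelihood test with group as the only term. Adjustment (Benjamini-Hochberg) was over the 17557 tested genes, and calls were made under 0.05. SE is the log2 fold change over the square root of F, and intervals (95%) use the t quantile of the fit. The pipeline was tested on simulated data. CPM used TMM-scaled library sizes, and patterns log2 CPM with a prior count of 2.

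The members and lists were chosen with earlier results of these data known. Named were all members, Trim28, called genes of each pathway list, the 2 with the smallest p where fewer than 2 were called, and the 5 nearest patterns to Aldh1a2 (mean log2 CPM of at least 1, no predicted genes). Other names were chosen after their values were seen. Alternatives were other scalings and filters, DESeq2 1.42.0, limma-voom 3.58.1, a non-robust fit, covariates, a replicate block and leaving out each library.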

Additional observations from a re-analysis of the deposited data

How the results depend on the processing

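None of the 9 retinoic acid genes was called under any of the 17 alternatives (16 for Stra6, which the filter of at least 1 CPM removed), with adjusted p values from 0.0524 to 0.995. The count of all called genes, 741 in the main analysis (540 higher and 201 lower), was 1203 with no filter, 330 with the Y-linked covariate and 60 with the ribosomal RNA covariate, and ran from 309 to 1577 when 1 library was left out, lowest without CKO replicate 3 and highest without the library labelled CKO 2. The cause was not tested. Directions that turned were all of changes not called. Aldh1a2 (0.05) was at -0.018 with the Y-linked and -0.20 with the ribosomal RNA covariate, and from -0.057 to 0.20 with 1 library left out. Crabp1 was at 0.074 with the Y-linked covariate. With the ribosomal RNA covariate Crabp2 was at -0.55, Dhrs3 at -0.056 and Cyp26b1 at 0.087. With 1 library left out Crabp2 ran from -0.12 to 0.52 and Stra6 from -0.20 to 0.85. Rara, Rarb, Rarg and Rxra kept their sign throughout, but Rxra (-0.18) was at -0.091 with the Y-linked covariate, and with the ribosomal RNA covariate Rara (0.17) was at 0.074 and Rarb (-0.15) at -0.059. The same alternatives were run for the 10 pathway genes named by rule, a choice made after seeing the data. Same-numbered control and CKO libraries did not deviate together (correlations of -0.0022, 0.0167 and 0.0014). Differently numbered ones ran from -0.0254 to 0.0248. No pairing by number was thus detected, though 3 libraries per group cannot exclude one. With the replicate block 724 genes were called, 0 of the 9, and Rbp4 had an adjusted p of 0.0547. Stra6 and Crabp2 were each under 100 counts in every library, which limits their precision, and how much of their spread is counting error was not tested.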
